A study of Mus musculus with 12 samples.

Results

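The genes described here are those of the mouse Zfp series, which carry the symbol Zfp followed by a number. They were chosen by name: every probe set whose single symbol in the platform annotation began with Zfp and a digit was taken, and each gene was read from the probe set with the highest mean signal over all 12 arrays. This gave 235 genes of the 9607 genes with 1 symbol on the array, covered by 368 probe sets. All 235 matched a RefSeq gene of GRCm38.p6, where 229 were protein coding, 4 were transcribed pseudogenes (Zfp862-ps, Zfp133-ps, Zfp572 and Zfp389) and 2 were long noncoding RNAs (Zfp783 and Zfp652os). The symbol is historical and gathers proteins of different kinds, so the genes share a name and, for most, a zinc finger, but not a pathway.

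Zinc fingers of the C2H2 kind fold around a zinc ion and read a few bases of DNA each, and a chain of fingers reads a longer site. Many Zfp genes encode a KRAB domain in front of the fingers, which recruits the corepressor Trim28 and through it a histone methyltransferase and DNA methylation, and this machinery is best known for silencing retroelements. KRAB zinc finger genes lie in clusters of related copies, because they multiplied by tandem duplication. In the thymus, double-positive (DP) cells carry both CD4 and CD8 and are tested on self antigen, and those that pass become single-positive (SP) cells.

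RNA of sorted thymocytes was measured on 12 arrays of the Affymetrix MOE430B type, 3 per group and 1 per sample. All mice were B10, carried a T cell receptor transgene (TCR), were 6 to 8 weeks old and were not treated; the TCR:HEL mice also carried HEL, which the labels do not spell out, and neither the promoter of a transgene nor the number of mice behind a sample is given. The 4 groups were CD4 SP cells of TCR mice (TCR SP, labelled as positive selection), CD4 SP cells of TCR:HEL mice (TCR:HEL SP, labelled as negative selection), and the DP cells of each (TCR DP and TCR:HEL DP). The series text calls the mice without HEL only B10, and the sample titles were followed.

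Values are MAS5 signals, a linear intensity scaled by the authors to a common level on each array. Fold changes are differences of log2(signal + 16) between group means, which understates the change of dim genes, and a call is an adjusted p under 0.05 in limma over all 13703 probe sets tested. Probe sets differ in brightness, so signals are compared between groups and not between genes, and mean signals over all arrays served only to choose probe sets and some of the genes named. Pearson correlations between arrays of 1 group ran from 0.816 to 0.892. Of 10 thymocyte markers only Cd8a was on this array, and it fell from DP to SP in both mice (log2 fold change -3.47 in TCR, -2.36 in TCR:HEL); Cd4 was not measured here. The arrays were hybridized in 3 periods that partly follow the groups: period 1 held replicate 1 of both SP groups, and period 3 held TCR SP replicate 3, TCR:HEL SP replicates 2 and 3 and TCR:HEL DP replicate 3. The Gapdh 5′ to 3′ signal ratio, a sign of RNA integrity, was 0.0379 in TCR SP replicate 1, 0.0856 in TCR:HEL SP replicate 1, 0.107 in TCR DP replicate 1 and 0.195 to 0.453 elsewhere. The same ratio for actin ordered the arrays differently. It was 0.120 in TCR SP replicate 1, 0.169 in TCR:HEL DP replicate 1, 0.184 in TCR DP replicate 1 and 0.376 in TCR:HEL SP replicate 1.

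Of the 235 genes, 182 exceeded the array median on 3 or more arrays and were tested, 119 of them on all 12. The other 53 had mean signals of 5.56 to 53.7, and 34 of these were above the median on no array. A gene can pass through 1 bright group alone, and 2 genes passed with 3 arrays only, so the counts below are of tested genes.

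RefSeq promoters on GRCm38.p6 were found for 190 of the 235 genes. The first one is shown because Zfp367 is the gene that fell most from DP to SP in the TCR mice. Whether E2F factors take part in this fall was not tested. Capitals mark a match to an E2F motif, TTTGGCGC read on the opposite strand, which begins 90 bases before the start. RefSeq gives Zfp367 a pair of promoters, and the one with this match is shown. The other promoters belong to neighbours in a cluster on chromosome 17 and are shown because they are near copies: the capitals are a run of 157 bases that is identical in both. Each sequence is the 250 bases before a RefSeq start, 5′ to 3′ on the strand of the gene. They lie at chr13:64152374-64152623 (minus strand), chr17:21962465-21962714 (minus strand) and chr17:22361401-22361650 (minus strand).
Zfp367: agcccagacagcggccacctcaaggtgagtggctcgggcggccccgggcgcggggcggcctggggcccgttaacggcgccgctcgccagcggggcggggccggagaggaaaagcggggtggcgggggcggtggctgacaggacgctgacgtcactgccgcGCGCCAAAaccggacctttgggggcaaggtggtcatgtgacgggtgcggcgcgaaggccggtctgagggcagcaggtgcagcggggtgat
Zfp942: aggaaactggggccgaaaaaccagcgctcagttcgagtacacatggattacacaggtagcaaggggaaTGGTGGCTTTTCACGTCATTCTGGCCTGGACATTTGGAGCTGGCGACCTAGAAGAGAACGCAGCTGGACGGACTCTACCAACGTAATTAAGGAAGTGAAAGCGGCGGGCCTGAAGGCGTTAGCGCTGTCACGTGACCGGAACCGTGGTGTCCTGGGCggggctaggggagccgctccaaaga
Zfp944: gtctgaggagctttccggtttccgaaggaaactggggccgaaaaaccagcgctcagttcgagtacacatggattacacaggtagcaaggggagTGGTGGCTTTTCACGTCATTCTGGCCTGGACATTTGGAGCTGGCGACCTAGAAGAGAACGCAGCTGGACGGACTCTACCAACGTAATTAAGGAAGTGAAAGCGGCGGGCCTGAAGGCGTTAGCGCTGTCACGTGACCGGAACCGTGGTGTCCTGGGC

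A match in these letters is a description and not a binding site. The motif TTTGGCGC on either strand was found in 0.417% of all 32851 promoters and in 2.15% of the 233 Zfp promoters. The latter belong to 5 of the 190 Zfp genes (Zfp213, Zfp367, Zfp444, Zfp653 and Zfp871). The related TTTCCCGC was in 0.895% of all promoters and in 1.72% of the Zfp promoters, those of Zfp383, Zfp512, Zfp644 and Zfp760. Together these motifs were in 3.86% of the 233 Zfp promoters and 1.30% of all promoters. These were picked from 11 motifs searched on both strands with the results known. The third E2F form searched, TTTGGCGG, is not part of these shares, and was in 0 of the 233 Zfp promoters and 0.444% of all. Of the motifs searched, TTTGGCGC alone was in the Zfp367 promoter shown. The other RefSeq promoter of Zfp367, at chr13:64153200-64153449 (minus strand), did not hold it and held TTTCGAA, a motif of cell cycle genes that was in 0.648% of all promoters, and CCAAT, the box read by NF-Y, which was in 33.8%. Neither promoter of Zfp367 held the third E2F form searched, TTTGGCGG (0.444% of all promoters), the E box CACGTG (6.02%) or the AP-1 site TGACTCA (4.46%). The core read by ETS factors, TTCCGG, was in neither, and it occurred in 32.2% of the Zfp promoters and 12.03% of all promoters. A longer form that overlaps it, CCGGAAG, was in 17.6% of Zfp promoters and 6.91% of all. The last pair searched was TTCCCAG, in 21.5% of Zfp promoters and 9.10% of all, and, as a separate motif, ACTACAA, in 7.73% and 2.81%.

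The first comparison asks which Zfp genes differ between DP and SP cells when the receptor's antigen is not present. In the TCR mice, 3 of the 182 genes rose from DP to SP (Zfp467, Zfp827 and Zfp287) and 3 fell (Zfp367, Zfp771 and Zfp438). This is 3.30% of the tested genes, beside 3.53% of all probe sets called; by direction, 1.12% of all probe sets were called higher and 2.42% lower. The share called is thus near the background, and what follows concerns the single genes.

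Zfp467, also known as EZI, has been described as a helper of STAT3 and as a factor that steers marrow stromal cells towards fat rather than bone. Its signal was 1240.4, 778 and 851 in TCR SP, 224, 353 and 292 in TCR:HEL SP, 118, 65.1 and 183 in TCR DP, and 59.6, 88.4 and 52.3 in TCR:HEL DP. Every SP array was above every DP array, and all TCR SP arrays were above all TCR:HEL SP arrays. The log2 fold change from DP to SP was 2.88 ± 0.34 (SE) in TCR (adjusted p = 0.000132) and 1.89 ± 0.34 in TCR:HEL (adjusted p = 0.00696, but 0.0561 with the hybridization periods drawn at 30-day gaps as a block). It has 1 probe set, of the s_at type, whose probes can match more than 1 transcript. The 6 measured markers of thymic epithelium and stroma summed to 2151 to 3832 in TCR SP and 1226 to 1691 in TCR:HEL SP. In DP cells the sums were 647 to 2172 in TCR and 1269 to 3103 in TCR:HEL, and both ranges overlap that of TCR SP. The array with 3103, TCR:HEL DP replicate 3, had the lowest Zfp467 signal (52.3). Epcam made up most of the sum, with group means of 2749 in TCR SP, 1213 in TCR:HEL SP, 1356 in TCR DP and 1718 in TCR:HEL DP. Of this list Epcam was not called (1.18, adjusted p = 0.244), and Dcn rose from DP to SP in TCR (1.30, adjusted p = 0.0308), while Foxn1, Psmb11, Col1a2 and Pdgfra were too dim to be tested. Their part in the Zfp467 result was not tested, and in bulk RNA fewer cells of a type and less RNA per cell cannot be told apart.

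Zfp367 moved the other way. Its protein is known in human cells as ZFF29, an activator of a globin gene in erythroid cells. Its signal was 761, 783 and 1762 in TCR DP, 1129, 1144 and 589.8 in TCR:HEL DP, 112, 189.7 and 177 in TCR SP, and 276, 385 and 192 in TCR:HEL SP. No SP array reached the lowest DP array, and all TCR:HEL SP arrays lay above all TCR SP arrays, though narrowly (192 against 189.7). The log2 fold change from DP to SP was -2.59 ± 0.38 in TCR (adjusted p = 0.000813) and -1.68 ± 0.38 in TCR:HEL (adjusted p = 0.0304). With hybridization period as a block the TCR:HEL value was -1.22 (adjusted p = 0.212), and within period 3 it was -1.07; in TCR the block gave -2.12 (adjusted p = 0.0173).

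Genes of cell division followed the same order of groups. The summed signal of 11 such genes on the array was 27536 to 29852 in TCR DP, 22793 to 25687 in TCR:HEL DP, 5470 to 9724 in TCR:HEL SP and 1269 to 3494 in TCR SP. Of the 10 that were tested, 9 fell from DP to SP in TCR and 5 in TCR:HEL, and Cenpe was higher in TCR:HEL SP than in TCR SP. Within the groups the order did not hold: TCR DP replicate 3 had the highest Zfp367 signal and the lowest division sum of its group. The part of dividing cells in the Zfp367 result was not tested.

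**Figure D1:**
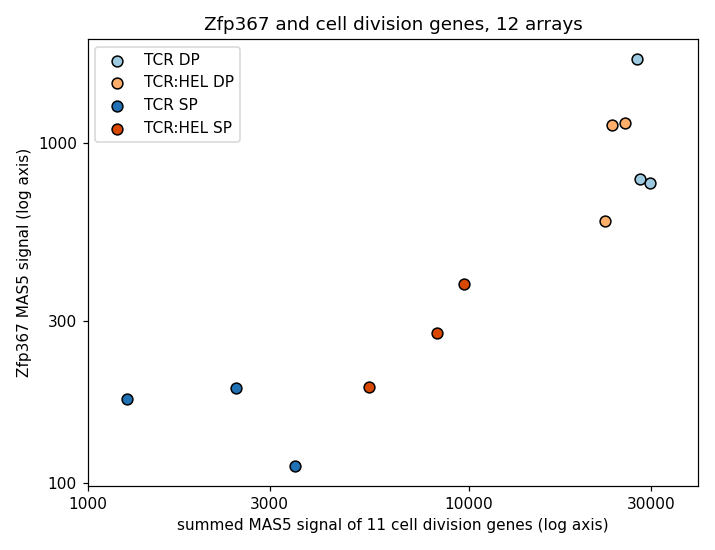
Zfp367 MAS5 signal (vertical, log axis) against the summed MAS5 signal of 11 cell division genes (horizontal, log axis), 1 point per array, coloured by group. The TCR SP arrays (112 to 189.7) sit lowest on both axes, the TCR:HEL SP arrays (192 to 385) in between and the 6 DP arrays (589.8 to 1762) highest.

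The other genes called in TCR were nearer to the threshold. Zfp827, whose human counterpart binds telomeres of some tumour cells, had signals of 343, 309 and 191 in TCR SP and 85.7, 65.9 and 117 in TCR DP, without overlap (log2 fold change 1.48 ± 0.31, adjusted p = 0.0124). In TCR:HEL it was at 345, 181 and 236 in SP and 102, 110.3 and 118 in DP, again without overlap, and was not called (1.06, adjusted p = 0.109). A dimmer probe set of Zfp827 gave 1.41 in TCR (adjusted p = 0.119) and 1.91 in TCR:HEL (adjusted p = 0.0392), the same direction in both.

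Zfp287, a SCAN and KRAB zinc finger gene, was at 759, 748 and 639 in TCR SP and at 482, 271 and 285 in TCR DP, with no overlap (1.06 ± 0.28, adjusted p = 0.0470). The call was lost under 19 of 25 alternative settings. Among them were hybridization period as a block (1.25, adjusted p = 0.0827) and the mean over its probe sets (0.80, adjusted p = 0.135). A dimmer probe set of Zfp287 gave 0.54 in TCR (adjusted p = 0.535), the same direction. The TCR:HEL arrays overlapped between stages (402, 473 and 526 in SP, 445, 353 and 285 in DP).

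Zfp438, whose human counterpart has been described as a repressor, fell from 449, 352 and 449 in TCR DP to 199, 219 and 152 in TCR SP (log2 fold change -1.08 ± 0.24, adjusted p = 0.0217). In TCR:HEL it was at 346, 300.3 and 271 in DP and 193, 216 and 211 in SP, lower without overlap but not called (-0.52, adjusted p = 0.399). With period as a block the TCR value was -0.91 (adjusted p = 0.196).

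Zfp771, for which no role is given here, stood at 2575, 3938 and 2357 in TCR DP and at 964, 1599 and 881 in TCR SP (-1.37 ± 0.33, adjusted p = 0.0287), and at 1720.3, 3648 and 2181 in TCR:HEL DP and 1307, 1388 and 1009 in TCR:HEL SP (-0.96, adjusted p = 0.183). The groups did not overlap in either mouse. This probe set is of the x_at type, whose probes can also match other sequences, and the other tested probe sets of the gene gave -0.30 (adjusted p = 0.885) and 0.16 (adjusted p = 0.958) in TCR, so the probe sets of Zfp771 disagree. The mean over its probe sets was -0.50 (adjusted p = 0.687).

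The same question in the TCR:HEL mice concerns SP cells labelled as negative selection. Here 2 of the 182 genes rose from DP to SP (Zfp467 and Zfp677) and 3 fell (Zfp354c, Zfp367 and Zfp629). This is 2.75% of the tested genes, beside 1.98% of all probe sets called; 0.876% of all probe sets were called higher and 1.10% lower. Zfp467 and Zfp367 were called in both mice, 4 genes in TCR but not in TCR:HEL and 3 in TCR:HEL but not in TCR.

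Zfp677, the second gene of the chromosome 17 cluster described below, had signals of 409.5, 404 and 287 in TCR:HEL SP and 175, 91.1 and 113 in TCR:HEL DP, without overlap (1.45 ± 0.30, adjusted p = 0.0171). In the TCR mice the stages overlapped, with 167, 155 and 249.7 in SP and 130.1, 173 and 189.7 in DP (0.19, adjusted p = 0.858). The difference between the stage effects of the mice, which is the interaction tested below, was 1.27 ± 0.42 for Zfp677 (adjusted p = 0.977), so a difference between the mice was not shown.

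Zfp354c, known as Kid3, is a KRAB repressor reported to act on Runx2 and its targets in bone cells. It was at 175, 165 and 106 in TCR:HEL DP and at 10.2, 39.2 and 15.8 in TCR:HEL SP (-2.17 ± 0.42, adjusted p = 0.0109). In TCR it was at 259.5, 189 and 100 in DP and at 50.4, 101 and 37.9 in SP, where 1 SP array just exceeded the lowest DP array (-1.33, adjusted p = 0.116). At signals this low the fold change depends on the constant added before the logarithm, and with 64 in place of 16 it was -1.31 in TCR:HEL (adjusted p = 0.0164).

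Zfp629 was at 640.5, 643 and 718 in TCR:HEL DP and at 296, 400.2 and 273 in TCR:HEL SP (-1.03 ± 0.24, adjusted p = 0.0360). In TCR the stages did not overlap either, with 489, 539 and 518 in DP and 308, 298 and 382 in SP, and the gene was not called (-0.63, adjusted p = 0.210). Its call in TCR:HEL was lost under 13 of 25 alternatives.

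With hybridization period as a block, Zfp467 alone of these genes stayed called in TCR:HEL: adjusted p was 0.0961 for Zfp677, 0.129 for Zfp354c and 0.0808 for Zfp629. That fit called Zfp414, Zfp518a, Zfp950 and Zfp995 in their place. In TCR it left Zfp467 and Zfp367 (adjusted p = 0.0510 for Zfp827). Within period 2, which holds 1 TCR SP array and all TCR DP arrays, the TCR differences were 2.62 for Zfp467, 1.65 for Zfp827, 1.12 for Zfp287, -2.33 for Zfp367, -0.84 for Zfp771 and -0.87 for Zfp438. Within period 3, with 2 SP arrays and 1 DP array, the TCR:HEL differences were 2.30 for Zfp467, 1.47 for Zfp677, -1.54 for Zfp354c and -1.08 for Zfp629.

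**Figure D2:**
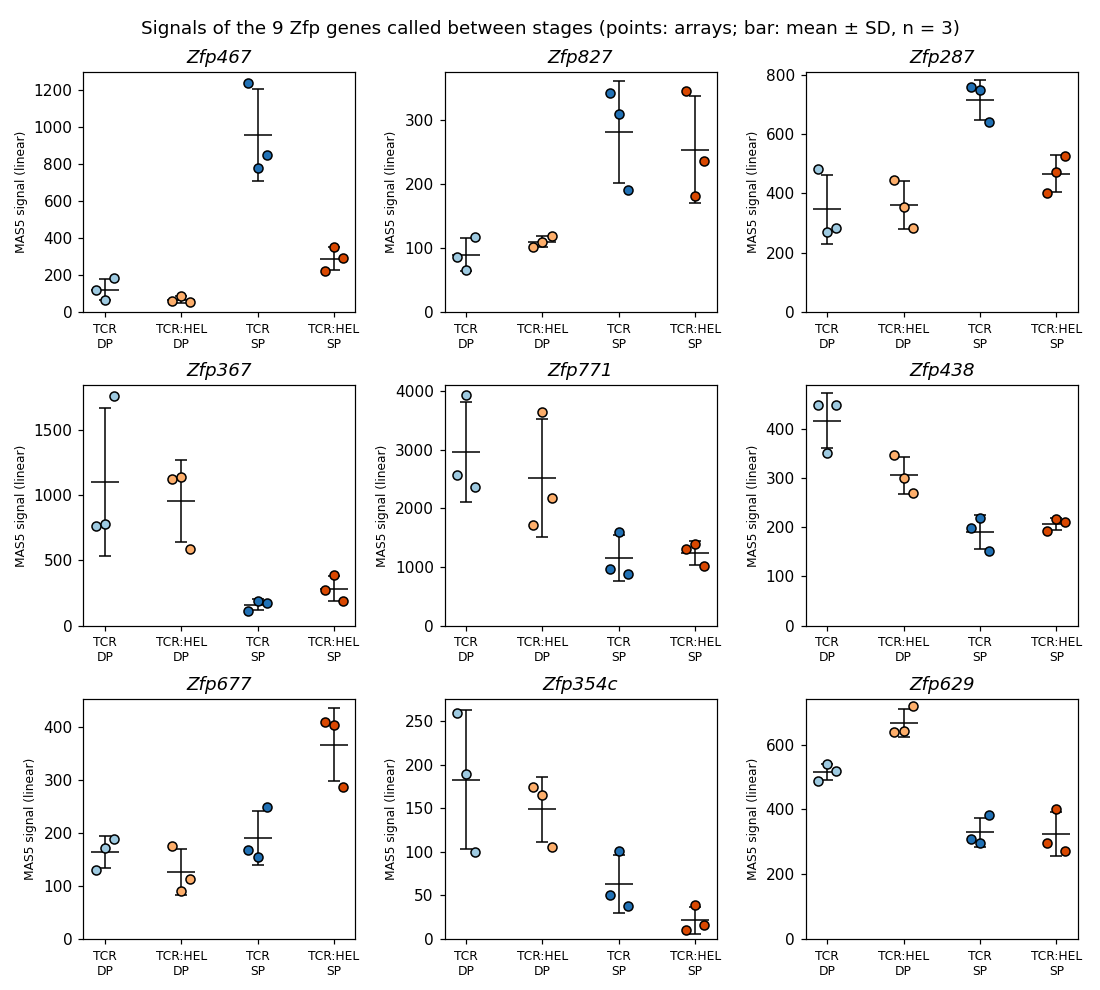
MAS5 signal (vertical, linear from 0) of the 9 Zfp genes called between stages in either mouse, by group. Points are arrays and bars are the mean ± SD of 3 arrays; Zfp467 stands out in TCR SP (778 to 1240.4), and Zfp367 in both DP groups.

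TCR and TCR:HEL arrays are separate samples, so the stage differences of the mice can be set side by side. Across the 182 genes they had the same sign in 122 (67.0%, beside 63.7% of all probe sets tested) and correlated at r = 0.50 (0.54 over all probe sets tested); these are descriptions across genes, which are not independent replicates, and period follows stage in both mice. Without overlap between stages in both mice, 4 genes were higher in SP (Zfp467, Zfp827, Zfp536 and Zfp429) and 6 were lower (Zfp367, Zfp771, Zfp438, Zfp629, Zfp128 and Zfp180), and none moved opposite ways. Over all probe sets, 2.43% were higher and 3.69% lower in this sense. In TCR alone, 11 genes were higher and 16 lower without overlap (14.8% of the tested genes, beside 17.0% of all probe sets, with 8.20% higher and 8.81% lower), and in TCR:HEL 21 were higher and 16 lower (20.3%, beside 18.6%, with 9.77% higher and 8.87% lower). Zfp536, known as a repressor of neuronal differentiation, was not called in either mouse (1.08, adjusted p = 0.0721, and 0.92, adjusted p = 0.173), nor was Zfp429 (0.69, adjusted p = 0.321, and 1.18, adjusted p = 0.0651).

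**Figure D3:**
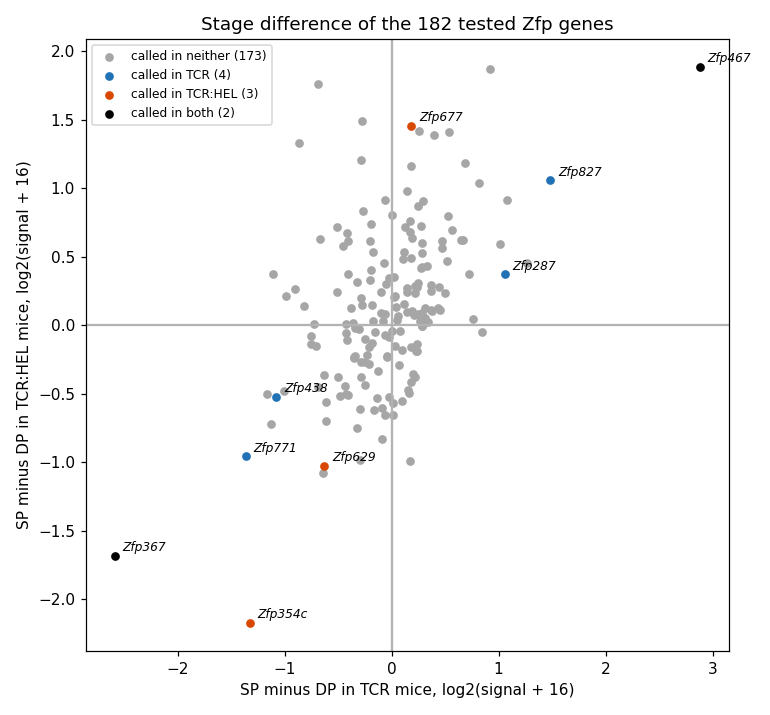
SP minus DP difference in log2(signal + 16) in TCR mice (horizontal) and in TCR:HEL mice (vertical), 1 point for each of the 182 tested Zfp genes. Genes called in both mice (Zfp467 at 2.88 and 1.89, Zfp367 at -2.59 and -1.68) lie far along the diagonal, and 173 genes were called in neither.

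The next comparison asks what the antigen changes in SP cells, and no Zfp gene was called between TCR:HEL SP and TCR SP by limma. At an unadjusted p under 0.05 there were 15 genes (8.24%, beside 7.19% of all probe sets), and over all probe sets 0.219% were called. Groups did not overlap for 13 genes higher and 15 lower in TCR:HEL SP, which is 15.4% of the tested genes beside 10.6% of all probe sets (5.74% higher and 4.89% lower). This comparison shares the TCR SP arrays with the stage comparison in TCR, and the TCR:HEL SP arrays with that in TCR:HEL.

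The smallest p belonged to Zfp467, whose signals are given above (log2 fold change -1.66 ± 0.34, adjusted p = 0.0625). It was called with 64 added before the logarithm (-1.52, adjusted p = 0.0192) and when TCR DP replicate 2 was left out (adjusted p = 0.0329). Over all alternatives adjusted p ran from 0.0192 to 0.686. The highest value came without the 3 arrays with the lowest Gapdh ratio (-1.30). Without the arrays of hybridization period 1 the adjusted p was 0.613 (-1.30). Next came Zfp217, whose human counterpart is a corepressor amplified in breast tumours, with 2717, 1774 and 1355 in TCR SP and 1022, 937 and 483 in TCR:HEL SP, without overlap (-1.25 ± 0.36, adjusted p = 0.304). Its DP signals, 1768, 1381 and 1883 in TCR and 2106, 1861 and 955 in TCR:HEL, overlapped.

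The other 3 genes with the smallest p were higher in TCR:HEL SP and all lie in the chromosome 17 cluster. Zfp995 was at 261, 262 and 232 in TCR:HEL SP and at 11.9, 121 and 133 in TCR SP (1.69 ± 0.51, adjusted p = 0.351). Replicate 1 of TCR SP, the array with the lowest Gapdh ratio, is far below the others for this gene. Its probe set is of the x_at type, and the other probe set of Zfp995 gave 0.61 (adjusted p = 0.861). Zfp760 was at 453, 458 and 295 against 78.4, 221 and 188 (1.31 ± 0.42, adjusted p = 0.401), and Zfp677, described above, gave 0.90 ± 0.30 (adjusted p = 0.442).

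In DP cells no Zfp gene was called between TCR:HEL and TCR by limma, nor was any other probe set (0.00%), and 2 Zfp genes had an unadjusted p under 0.05 (Zfp707 and Zfp286; 1.10%, beside 2.47% of all probe sets). The family leaned downwards: 117 of the 182 genes were lower in TCR:HEL DP, and 35.7% were higher beside 52.4% of all probe sets. The median difference was -0.10, beside 0.02 over all probe sets. Groups did not overlap for 14 genes that were lower and 1 that was higher (Zfp629), or 7.69% and 0.549% of the genes, beside 3.92% and 3.75% of all probe sets (7.67% in either direction). The 14 were Zfp286, Zfp458, Zfp707, Zfp691, Zfp938, Zfp513, Zfp14, Zfp647, Zfp438, Zfp658, Zfp54, Zfp157, Zfp963 and Zfp414. With hybridization period as a block the median was -0.0041, so the lean was lost in that fit, and within period 2 it was -0.04. With each array left out in turn it ran from -0.15 to -0.04, the latter without TCR:HEL DP replicate 3, which was hybridized later than the other DP arrays. By array, the median of the tested Zfp genes in log2(signal + 16) was 7.91, 7.59 and 7.57 in TCR:HEL DP and 7.98, 7.93 and 7.78 in TCR DP, so replicate 1 of TCR:HEL DP lay among the TCR arrays and replicates 2 and 3 below them.

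Zfp707 was at 207, 232 and 216 in TCR:HEL DP and at 372, 341 and 398 in TCR DP (-0.72, adjusted p = 1.00), read from an s_at probe set. Zfp286 was at 77.8, 83.0 and 28.9 against 160.0, 149 and 102 (-1.01, adjusted p = 1.00). Zfp691 (-0.62), Zfp14 (-0.58) and Zfp647 (-0.57) had the next smallest p, with the same adjusted p. The summed signal of 4 B cell markers also differed between these groups, 709 to 968 in TCR:HEL DP and 402 to 414 in TCR DP. That difference came mainly from Fcmr (means of 328 in TCR:HEL DP and 127 in TCR DP) and H2-DMb2 (225 and 52.1). Pax5 (194 and 175) and Ebf1 (55.1 and 55.6) were nearly alike, and none of the 4 was called. The part of these markers in the lean was not tested.

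**Figure D4:**
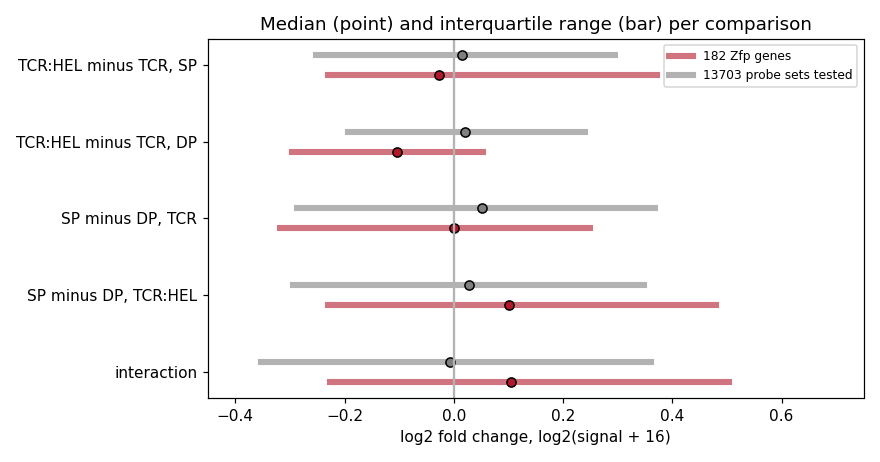
Median (point) and interquartile range (bar) of the log2 fold change in each of the 5 comparisons, for the 182 tested Zfp genes and for all 13703 probe sets tested. The medians of the Zfp genes lie between -0.10 (TCR:HEL minus TCR in DP) and 0.10 (the interaction and SP minus DP in TCR:HEL), within the interquartile range of all probe sets each time.

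The interaction asks whether the antigen difference in SP cells differs from that in DP cells. No Zfp gene was called by limma, 1 probe set of all was (0.00730%), and 12 Zfp genes had an unadjusted p under 0.05 (6.59%, beside 4.44% of all probe sets). The 5 genes with the smallest p were Zfp995 (2.45 ± 0.72, adjusted p = 0.938), Zfp677 (1.27), Zfp938 (1.20), Zfp799 (1.23) and Zfp286 (1.49), all with a higher difference in SP than in DP. The interaction is also the difference between the stage effects of the mice, so no stage effect above was shown to differ between TCR and TCR:HEL.

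Zfp genes lie in runs along the chromosomes, with 60 of the 235 on chromosome 7, 31 on chromosome 17 and 23 on chromosome 13. Runs were defined as Zfp genes with at most 10 other protein-coding genes between neighbours, a limit set with the values known, and 8 runs held at least 5 tested genes. The run from Zfp160 to Zfp13 on chromosome 17, with 18 genes of which 15 were tested, stood out by eye among these, so its values are a description with no test. Its median difference between TCR:HEL SP and TCR SP was 0.71, with 9 of 15 genes higher, beside -0.03 for the other 167 Zfp genes. In DP cells its median was -0.23, with 4 of 15 higher. From DP to SP it was 0.72 in TCR:HEL, with 13 of 15 higher, and 0.18 in TCR, with 9 of 15 higher.

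By array, the median of the 15 genes in log2(signal + 16) was 8.03, 7.71 and 7.66 in TCR:HEL SP, 6.96, 7.20 and 7.51 in TCR SP, 7.04, 7.09 and 7.36 in TCR DP and 7.06, 6.74 and 6.88 in TCR:HEL DP. The TCR:HEL SP arrays were higher than all others. The lead over TCR SP rests largely on the arrays of period 1: without them the median difference was 0.11. The arrays of period 1 alone gave 1.21 and those of period 3 alone -0.07. The difference was 0.31 without TCR SP replicate 1 and 1.10 without TCR SP replicate 3. The lead over TCR:HEL DP was 0.75 without period 1 and 0.89 with period as a block, and the arrays of period 3 alone gave 0.60. Leaving out TCR:HEL DP replicate 2 gave 0.42, and leaving out replicate 1 of that group gave 1.12.

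Within the run the genes did not move alike. Higher in TCR:HEL SP were Zfp995 (1.69), Zfp944 (1.62), Zfp760 (1.31), Zfp994 (0.98), Zfp677 (0.90), Zfp820 (0.85), Zfp946 (0.78), Zfp53 (0.71) and Zfp983 (0.47). Lower were Zfp945 (-0.64), Zfp948 (-0.61), Zfp54 (-0.23), Zfp942 (-0.20), Zfp40 (-0.08) and Zfp213 (-0.06), and none was called. A second tested probe set went the other way for Zfp945 (0.44) and Zfp54 (0.50). For Zfp995 (0.61) and Zfp40 (-0.05) it had the same sign. Zfp942 and Zfp944, whose promoters share the 157 bases printed above, were at 125, 85.8 and 128 and at 323, 181 and 137 in TCR:HEL SP, and at 109, 131 and 155 and at 4.43, 77.9 and 166 in TCR SP. The groups overlapped for both genes, and the difference between the genes was not tested. Among 168 pairs of promoters of different genes in the run, this pair alone shared 20 bases or more in a row, and the median of the longest shared stretch was 8 bases. Only promoters were compared, and whether probe sets in the run match other genes of the run was not checked. Probe sets of related genes may not be independent.

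**Figure D5:**
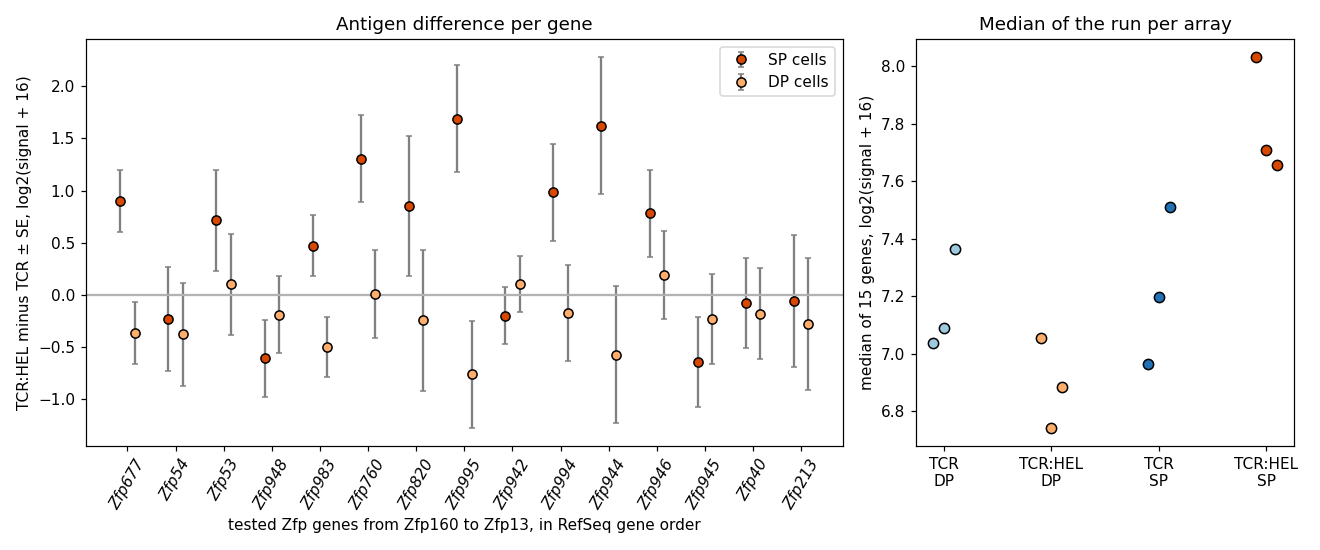
Left, TCR:HEL minus TCR difference ± SE in log2(signal + 16) for the 15 tested Zfp genes of the chromosome 17 run, in RefSeq gene order, in SP and in DP cells. Right, median of the 15 genes on each array; the TCR:HEL SP arrays (7.66 to 8.03) lie above the other 9 arrays (6.74 to 7.51).

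Of the 8 runs, this one had the highest median between the SP groups, and the other runs went both ways. A second run on chromosome 17, from Zfp871 to Zfp414 with 8 tested genes, had medians of 0.40 between the SP groups and -0.22 between the DP groups. The run from Zfp712 to Zfp493 on chromosome 13, with 12 tested genes, had 0.15 and -0.19. The run from Zfp787 to Zfp28 on chromosome 7, with 6 tested genes, had -0.44 between the SP groups, with 1 of 6 higher, and -0.07 between the DP groups. Also on chromosome 7, the run from Zfp551 to Zfp446, with 5 tested genes, had -0.14 and -0.25. On the same chromosome, the run from Zfp771 to Zfp646, with 5 tested genes, was lower in SP than in DP by medians of -0.43 in TCR and -0.61 in TCR:HEL.

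Of 32 Zfp genes listed for a known role, 20 were among the 235, 18 were tested, and Zfp367 alone was called in any comparison. Zfp91 and Zfp703 were too dim to be tested, and Zfp36, Zfp36l1 and Zfp36l2, which bind AU-rich messages, were not analysed here. Zfp608, reported to repress the Rag genes in thymocytes, was at 245, 245 and 293 in TCR SP and at 168, 169.6 and 28.1 in TCR DP, higher without overlap but not called (1.27, adjusted p = 0.171). A second probe set of Zfp608 gave 1.04 (adjusted p = 0.121).

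Zfp335, which T cells need in order to mature after the thymus, was at 538, 672 and 384 in TCR SP, 443, 428 and 437 in TCR:HEL SP, 572, 542 and 764 in TCR DP and 428, 629 and 544 in TCR:HEL DP, with overlap in every comparison. Zfp445, a KRAB protein that maintains imprints, stood at 1382, 1967 and 1699.8, at 2162, 2005 and 1558, at 1410.5, 1236 and 1469.8 and at 1941, 1405 and 815 in the same order of groups. Zfp809, a KRAB protein that silences retroviruses in embryonic stem cells, stayed between 613 and 967 on all arrays, and was higher in TCR:HEL SP (933, 967 and 854) than in TCR SP (732, 728 and 835) without overlap or call (0.26, adjusted p = 0.886). Zfp384, a factor fused to partner genes in human leukaemia, had group means of 1343 to 1511 with overlap between all groups. Zfp318, which B cells need to make IgD, was at 427, 307 and 306 in TCR SP, 472, 329.6 and 384 in TCR:HEL SP, 179, 144 and 443 in TCR DP and 278, 249 and 189 in TCR:HEL DP. The stages overlapped in TCR through 1 bright DP array and not in TCR:HEL, and neither difference was called (0.56, adjusted p = 0.538, and 0.69, adjusted p = 0.457).

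Zfp512 and Zfp266, named because of their mean signal over all arrays, were not called either. Zfp512 was at 1696, 2049 and 1175 in TCR SP, 1307, 1636 and 1022 in TCR:HEL SP, 1793, 2098 and 2130.4 in TCR DP and 2601, 1962 and 2069 in TCR:HEL DP. It was lower in SP than in DP without overlap in TCR:HEL alone (-0.75, adjusted p = 0.213). Zfp266 was at 1249, 1251 and 1442 in TCR SP, 1395, 1922 and 1989 in TCR:HEL SP, 1622, 1780.4 and 1844 in TCR DP and 1878, 1342 and 959 in TCR:HEL DP. It was lower in SP without overlap in TCR alone (-0.41, adjusted p = 0.562). Other tested probe sets of Zfp266 gave 0.98, 0.32 and -0.08 in TCR, none of them called, so its probe sets disagree in direction.

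The corepressor machinery of KRAB zinc fingers was represented by 10 of 27 listed genes, all tested. In TCR, Chd3, a subunit of the NuRD remodeller, rose from DP to SP (1.16, adjusted p = 0.0486) and Dnmt1, the maintenance DNA methyltransferase, fell (-2.02, adjusted p = 0.00490). Dnmt1 also fell in TCR:HEL (-1.94, adjusted p = 0.0109), and no listed gene was called between TCR:HEL and TCR. Trim28 itself had group means of 9288 in TCR SP, 9998 in TCR:HEL SP, 14129 in TCR DP and 14322 in TCR:HEL DP and was not called (-0.66, adjusted p = 0.240, and -0.53, adjusted p = 0.434). The list's median was -0.22 in TCR and -0.31 in TCR:HEL, beside 0.05 and 0.03 over all probe sets.

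Of 49 genes of other zinc finger families (Zbtb, Zscan, Zkscan, Znf and Zfhx), 45 were tested; 2 fell from DP to SP in TCR and 1 in TCR:HEL. These were Zkscan17 in both mice (-1.13 and -1.18) and Zbtb5 in TCR (-1.25). None was called between TCR:HEL and TCR. Of 22 listed genes of AU-rich message decay, 12 were tested and none was called in any comparison by limma.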

How the data were processed

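RNA of 3 biological replicates in each of 4 groups was measured on 12 one-colour arrays. Per the labels, each sample was RNA of 100000 to 1000000 sorted cells, with biotin labelling for small samples. The deposited values are MAS5 signals, an intensity on a linear scale, and the submitters' processing notes name MAS5 without version or settings. The 2% trimmed mean was alike on all arrays, so the values were used as scaled, and array medians were 63.0 to 81.3. The deposited array records gave the hybridization days. Samples were grouped by title. The number of arrays limits the precision.

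From the 22575 probe sets, 64 controls were removed and those that exceeded the array median on 3 or more arrays were kept, in all 13703. Signals were transformed as log2(signal + 16) and fitted with limma 3.58.1 in R 4.3.3, with 4 group means, all 12 arrays and a trend (degrees of freedom: residual 8, prior 7.01). All tests are two-sided, with Benjamini-Hochberg adjustment within each of 5 contrasts; the fit was tested on simulated data. Named are the called Zfp genes, up to 5 genes by smallest p where fewer were called, the 5 with the highest mean signal (Zfp771, Zfp512, Zfp445, Zfp266 and Zfp217) and a list of genes with known roles. Members, lists, periods (gaps over 35 days) and the chromosome 17 run were chosen with earlier results of these data known.

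Arrays of the same replicate number deviated together between the SP groups (r = 0.16, 0.20 and 0.19), which met the rule used for pairing (every r over 0.1). Replicates 1 of the SP groups were hybridized on the same day, as were replicates 3. For those arrays a shared day and a pairing of samples cannot be told apart. The other contrasts did not meet the rule, narrowly so from DP to SP in TCR:HEL (0.09, 0.11 and 0.20). The alternatives were other constants, filters and normalization, fits without trend, on 2 groups, with blocks, with means over probe sets, and without single arrays. Promoters are RefSeq's on GRCm38.p6. Proteins and their domains were not analysed here.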

Additional observations from a re-analysis of the deposited data

How the results depend on the processing

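Of 645 recomputed values for 26 named results, none changed direction, 83 lost a call and 2 gained one. Only the results called at first, 6 in TCR and 5 in TCR:HEL with 25 alternatives each, could lose a call. All 83 losses fall among these. Zfp467 and Zfp367 stayed called from DP to SP in TCR under all 25 alternatives run for them. The count of Zfp genes called in that comparison, 6, became 3 when its groups were fitted alone, 2 with hybridization period as a block, 3 with periods by 30-day gaps as a block and 3 without the 3 arrays with the lowest Gapdh ratio; with each array left out it ran from 3 (without TCR SP replicate 3 or TCR DP replicate 2) to 6. From DP to SP in TCR:HEL the count of 5 became 3 without a trend. With each array left out it ran from 1 (without TCR:HEL DP replicate 2) to 7 (without TCR SP replicate 1). It was 2 without TCR:HEL SP replicate 1 or 3 and 3 without TCR:HEL DP replicate 3. Of the 5 genes, Zfp467 alone stayed called without the 3 arrays with the lowest Gapdh ratio (adjusted p = 0.0204). The others were then at adjusted p of 0.0568 to 0.148. Without the arrays of hybridization period 1, Zfp467 again stayed called (adjusted p = 0.0130) and the others were at 0.0527 to 0.112. Between TCR:HEL SP and TCR SP the count of 0 became 1, Zfp467, with 64 added before the logarithm, and ran from 0 to 1 (without TCR DP replicate 2) with each array left out. The counts of 0 between the DP groups and in the interaction stayed 0 under every alternative run. With the replicate number as a block the counts were 0 between the SP groups, 0 between the DP groups, 6 in TCR, 7 in TCR:HEL (with Zfp771 and Zfp950 added) and 0 in the interaction; no call was lost. In the stage comparisons the rule for pairing was not met. There r was 0.05, 0.29 and 0.01 in TCR and 0.09, 0.11 and 0.20 in TCR:HEL. The alternatives with 30-day gaps, without the 3 arrays and without x_at and s_at probe sets were chosen after seeing the data, and the last left 4 genes called in each stage comparison, Zfp467 being read from such a probe set. Medians over all Zfp genes moved by less than the spread between replicates. Causes of these changes were not tested.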

Other observations

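For 56 of the 182 tested Zfp genes a second probe set was also tested. The difference had the same sign in both probe sets for 35 genes between the SP groups, 28 between the DP groups, 29 from DP to SP in TCR, 38 from DP to SP in TCR:HEL and 35 in the interaction. The median absolute difference between the probe sets of a gene was 0.52 on the log2 scale from DP to SP in TCR and 0.40 in TCR:HEL.

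Zfp950, which was not called from DP to SP in TCR:HEL (1.87, adjusted p = 0.0748) but was with hybridization period or replicate number as a block or with these groups fitted alone, was at 145, 398 and 238 in TCR:HEL SP and 59.7, 62.5 and 42.6 in TCR:HEL DP. In TCR it was at 42.2, 205 and 288 in SP, with a DP mean of 68.0. TCR SP replicate 1 lay below all TCR DP arrays, the other TCR SP arrays above them, and without that replicate the gene was called in TCR as well. A second probe set of Zfp950 had a similar mean signal over all arrays (128 beside 140). It gave 0.78 in TCR:HEL (adjusted p = 0.490) and 0.25 in TCR (adjusted p = 0.869).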
